A study of Mus musculus with 8 samples.

Results

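The collagen genes of the mammary epithelium were taken as the protein-coding genes in the deposited table whose symbol is Col, a number, the letter a and a number. The rule gave 44 of the 55933 genes measured, and 31 of the 44 passed the filter on low values (a mean of at least 0.5 FPKM over the 8 libraries), as did 15143 of all genes. They comprised 11 fibrillar collagens, 6 type IV collagens, 3 collagens of the basement membrane zone, and 24 minor collagens. The minor collagens were 6 type VI, 9 fibril-associated (FACIT), 3 short-chain network and 4 transmembrane collagens and 2 others.

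Collagens are secreted proteins in which chains wind into a helix, and the chains of one helix can come from the same gene or from different genes. Fibrillar collagens such as types I and III build the fibrils of the stroma, which fibroblasts lay down around the mammary ducts. Type IV collagen forms the sheet-like network of the basement membrane, on which myoepithelial cells rest, and types VII, XV and XVIII lie at its stromal face. FACIT collagens attach to fibrils, type VI forms beaded filaments, and transmembrane collagens such as type XVII span the cell surface.

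Libraries were sequenced from the mammary epithelial cells of 4 control mice and of 4 mice with a conditional knockout (cKO) of Bmpr1a, all at pregnancy day 14.5. All mice were on a C57BL/6 background. The cKO mice were K14-rtTA;teto-Cre;Bmpr1a fl/fl. In them the K14 promoter drove rtTA, which turned on teto-Cre when doxycycline was in the drinking water. Deletion of the BMP receptor was in this way directed to K14-expressing myoepithelial cells. Controls were littermates that the sample labels call WT and whose transgenes were not further given. Glands were digested with collagenase and hyaluronidase and the cells were not sorted, so fewer cells of a type and less RNA per cell cannot be told apart in these values.

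Bmpr1a itself had 10.1 ± 1.28 FPKM (SD, n = 4) in control and 11.2 ± 1.01 FPKM (SD, n = 4) in cKO libraries, with overlapping groups (limma, adjusted p = 0.56). This value covers the whole gene and all cells of a library, whereas the deletion was directed to Krt14-expressing cells, and whether the reads cover the deleted part was not tested. It therefore does not check the labels. Between 16123108 and 19896988 reads lay on genes per library, of which 0.623% to 1.28% lay on collagen genes. The luminal markers (6 genes) summed to between 4618 and 5943 FPKM and the myoepithelial markers (8 genes) to between 1508 and 2186 FPKM over the 8 libraries, so both epithelial layers were present. The 9 fibroblast markers summed to between 182 and 451 FPKM with none at 0 in any library, so stromal RNA was present too. Libraries with replicate numbers 1 and 2 deviated together, as did those with numbers 3 and 4 (correlations over genes of 0.0873 to 0.178 between groups for different numbers within these sets, and of -0.21 to -0.072 across them). No sample label names these sets. They were read from these same libraries, so a call made with them as a block is not separate support. Log2 differences within the sets are given for the collagen genes with an unadjusted p under 0.05 and for Col3a1 and Col1a1.

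Of the 31 collagen genes tested, 28 had a lower mean log2 level in the libraries labelled cKO, and 3 were called at an adjusted p under 0.05 by limma, all of them lower. These were Col16a1, Col9a2 and Col7a1. Over all 15143 genes tested, 0.892% were called in either direction and 0.304% were called lower. At an unadjusted p under 0.05, 11 of the 31 were lower and 0 were higher, against 16.4% of all genes in either direction and 7.53% lower. Groups did not overlap for 9 of the 31, all lower in cKO, against 4.6% of all genes lower and 6.1% higher. The median log2 fold change of the 31 was -0.24, and that of all genes tested was 0.0007 on the same log2(FPKM + 1) scale. Changes of genes with low values are understated on this scale.

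**Figure D1:**
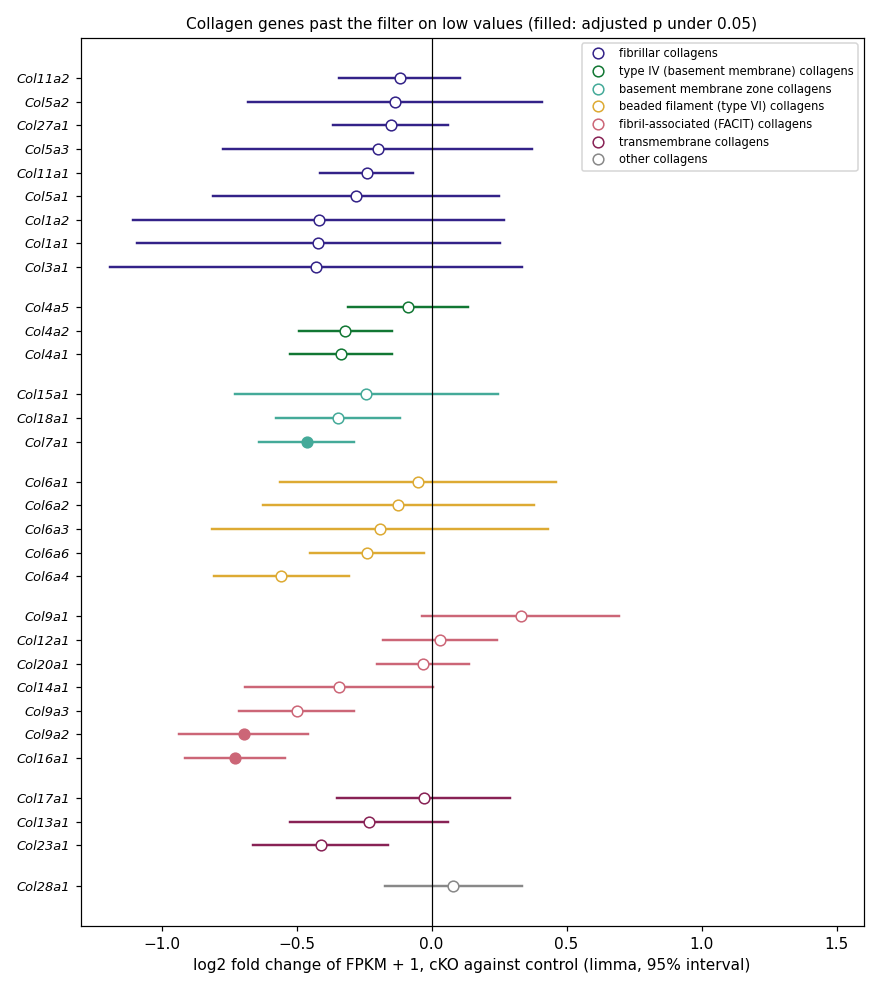
Log2 fold change of FPKM + 1 (cKO against control, x axis) with its 95% interval from limma for the 31 collagen genes past the filter, grouped by class. Filled points have an adjusted p under 0.05. The 3 filled points, Col16a1, Col9a2 and Col7a1, lie at -0.73, -0.70 and -0.46, and the widest intervals belong to Col3a1, Col1a2 and Col1a1.

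The 3 calls depended on single libraries, but the direction of the differences did not. As single libraries were left out, the log2 fold change ran from -0.79 to -0.69 for Col16a1, from -0.76 to -0.62 for Col9a2 and from -0.51 to -0.41 for Col7a1. Without any 1 of the 4 control libraries, and without cKO replicate 2 or cKO replicate 4, 0 collagen genes passed, while 10 to 13 still had an unadjusted p under 0.05 when any 1 library was left out. Without cKO replicate 1 only Col16a1 passed, and without cKO replicate 3 all 3 passed. The number of calls over all genes moved in the same refits between 0 and 78. Within the sets of replicates, 25 of the 31 collagen genes were lower in both sets, against 33.2% of all genes tested. All 11 with an unadjusted p under 0.05 were among the 25. These 11 were chosen by their p over the same libraries, so that agreement is not separate support.

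Summed over the 44 genes, collagen FPKM was 1079, 1486, 1108 and 1610 in the control libraries, here and throughout in the order of the replicate numbers, and 1271, 940.0, 841 and 1063 in the cKO libraries. The groups overlapped. The fibrillar collagens supplied between 33.1% and 51.8% of the sum. Col4a1, Col3a1, Col1a1, Col4a2 and Col1a2 together held 62.2% to 70.1% of it.

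The 9 fibrillar collagens tested were all lower in mean level in cKO and none was called. The chains of types I, III and V varied widely among libraries of one group, and Col11a1, Col11a2 and Col27a1 did not. The class's summed FPKM was 391, 699, 410 and 834 in control and 618, 381, 278 and 471 in cKO libraries. Control replicates 2 and 4 and cKO replicate 1 were high, and the highest of the 8 values was 3.0 times the lowest. The median log2 fold change of the class was -0.24.

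Col3a1, the chain of type III collagen in loose stroma, had 151, 299, 163 and 341 FPKM in control and 258, 149, 104 and 188 FPKM in cKO libraries. Col1a1 and Col1a2 encode the chains of type I collagen. Col1a1 had 122, 204, 131 and 266 FPKM in control and 185, 116, 85.3 and 147 FPKM in cKO libraries. Col1a2 had 67.5, 115, 67.4 and 137 FPKM in control and 103, 63.5, 43.8 and 77.3 FPKM in cKO libraries.

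The same libraries were high and low for all 3 genes, and the groups overlapped for each. Their log2 fold changes were -0.43 (SE 0.34), -0.42 (SE 0.30) and -0.42 (SE 0.30), with adjusted p of 0.581, 0.533 and 0.544. The interval of Col3a1 ran from -1.19 to 0.34 on the log2 scale, so no difference lay inside it. The difference was -0.11 for Col3a1 and -0.11 for Col1a1 within replicates 1 and 2, and -0.75 and -0.73 within replicates 3 and 4.

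Col11a1 was the exception among fibrillar collagens. It encodes a chain of type XI collagen, which lies inside fibrils and limits their width. Its FPKM was 2.61, 2.83, 2.84 and 3.02 in control and 2.11, 2.59, 2.21 and 2.07 in cKO libraries. All 4 cKO values lay under all 4 control values. Limma gave a log2 fold change of -0.24 (SE 0.08), an unadjusted p of 0.012 and, after adjustment, 0.173. The difference was -0.16 for replicates 1 and 2 and -0.32 for replicates 3 and 4. The other fibrillar chains Col5a1, Col5a2, Col5a3, Col11a2 and Col27a1 had log2 fold changes between -0.12 and -0.28, all with overlapping groups. Col2a1, the collagen of cartilage, and Col24a1 stayed under the filter with means of at most 0.0443 FPKM in a group.

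**Figure D2:**
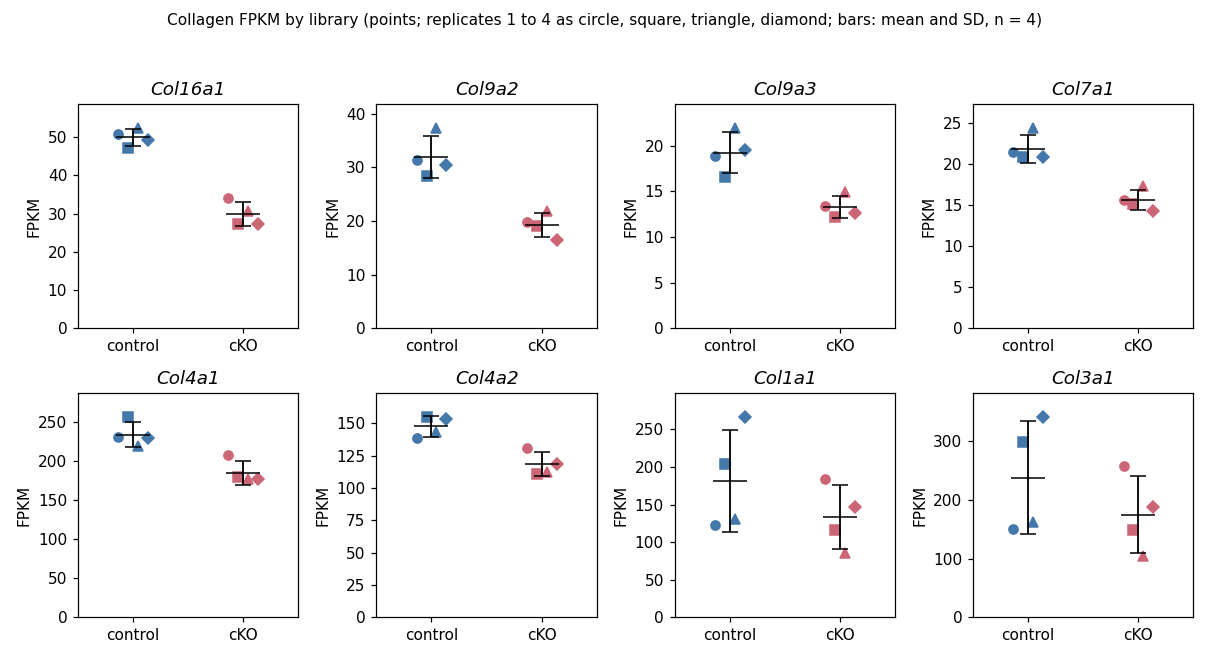
FPKM of 8 collagen genes in each library (points, with replicates 1 to 4 as circle, square, triangle and diamond) with the mean and SD of each group (bars, n = 4). Col16a1, Col9a2, Col9a3, Col7a1, Col4a1 and Col4a2 were lower in every cKO library than in every control library, while the groups of Col1a1 and Col3a1 overlapped.

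Type IV collagen separated the groups with little spread. The summed FPKM of its 6 genes was between 381 and 435 in control and between 308 and 361 in cKO libraries, without overlap. Col4a1 and Col4a2 encode the chains of the network found in most basement membranes. They were the first and the fourth highest collagen genes by mean FPKM.

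Col4a1 had 232, 256, 219 and 229 FPKM in control and 209, 179, 177 and 177 FPKM in cKO libraries. Col4a2 had 138, 155, 143 and 154 FPKM in control and 131, 111, 112 and 119 FPKM in cKO libraries. For both genes every cKO value lay under every control value, with cKO replicate 1 the closest. The log2 fold changes were -0.34 (SE 0.08) and -0.32 (SE 0.08) (-20.8% and -19.8% in FPKM + 1), with unadjusted p of 0.00303 and 0.0024. Neither was called by limma over all genes, with adjusted p of 0.101 and 0.0924. With the sets of replicates as a block in limma, the adjusted p was 0.0377 for Col4a1, which was then called, and 0.0571 for Col4a2. As the sets were read from these same libraries, that call is not separate support. With limma-voom and the replicate block, which gave 680 calls over all genes, the adjusted p was 0.0298 and 0.0428, and both were called. Within replicates 1 and 2 the differences were -0.33 and -0.28, and within replicates 3 and 4 they were -0.34 and -0.36.

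The 2 genes lie head to head on chromosome 8 of GRCm38, with Col4a1 on the minus strand from 11198423 to 11312826 and Col4a2 on the plus strand from 11312805 to 11449287. The table's gene bounds share 22 bases between both starts. These are shown because both transcripts begin there, read on the plus strand from RefSeq GRCm38.p6 at chr8:11312805-11312826 with a GC box, GGGCGG, in capitals.
Col4a1 and Col4a2: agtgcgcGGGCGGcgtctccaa
Each gene had between 11796 and 33161 reads per library.

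Col4a5, a chain of the type IV network that pairs with Col4a6, had 19.8 ± 2.42 FPKM (SD, n = 4) in control and 18.5 ± 1.82 FPKM (SD, n = 4) in cKO libraries, and the groups overlapped. Its log2 fold change was -0.09 with an interval from -0.31 to 0.14. Col4a3, Col4a4 and Col4a6 were under the filter, with group means of at most 0.31 FPKM.

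At the basement membrane zone, Col7a1 was lower in cKO libraries. It encodes type VII collagen, which forms the anchoring fibrils between the basement membrane and the stroma. Its FPKM was 21.4, 20.8, 24.4 and 20.8 in control and 15.5, 15.2, 17.3 and 14.3 in cKO libraries. The groups did not overlap, and control replicate 3 stood above the other control libraries. Col7a1 fell by 0.46 on the log2 scale (SE 0.08, limma adjusted p = 0.0377), with differences of -0.43 within replicates 1 and 2 and -0.49 within replicates 3 and 4. The adjusted p ranged from 0.0472 to 0.0989 as single libraries were left out.

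Col18a1, a heparan sulfate-bearing collagen of basement membranes and the source of endostatin, had 32.8, 44, 39.8 and 43.0 FPKM in control and 32.6, 28.8, 33.6 and 29.1 FPKM in cKO libraries. Control replicate 1 lay within the range of the cKO libraries, and the other control libraries lay above it. The log2 fold change was -0.35 (SE 0.10, limma unadjusted p = 0.00751, adjusted p = 0.143), with -0.30 for replicates 1 and 2 and -0.39 for replicates 3 and 4.

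Col15a1, the close relative of Col18a1, followed the fibrillar pattern. It had 19.3, 29.0, 15.4 and 26.1 FPKM in control and 23.7, 16.7, 13.7 and 20.5 FPKM in cKO libraries, with overlapping groups and an adjusted p of 0.633. Over the 6 tested genes of type IV and the basement membrane zone, the median log2 fold change was -0.33, all 6 were lower, 4 had an unadjusted p under 0.05 and 1 was called. Over all genes tested, 49.8% had a lower mean, 7.53% were lower at that unadjusted threshold and 0.304% were called lower.

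Col16a1 and Col9a2, both FACIT collagens, had the largest differences among the collagens tested on the log2(FPKM + 1) scale, which understates changes of low genes such as Col6a4. The class's summed FPKM was between 129 and 149 in control and between 91.9 and 109 in cKO libraries, without overlap. This was not a trait of every member. Groups did not overlap for 3 of its 7 tested genes, Col16a1, Col9a2 and Col9a3, against 4.6% of all genes lower. Of the 7, 2 had higher means in cKO. Col16a1, which encodes type XVI collagen of fibril margins and basement membrane zones, had 50.9, 47.2, 52.5 and 49.4 FPKM in control and 34.1, 27.3, 30.7 and 27.4 FPKM in cKO libraries. The lowest control value was above the highest cKO value by more than the range of the control group. Col16a1 fell by 0.73 on the log2 scale (SE 0.08, limma adjusted p = 0.0204), with 3045 to 6255 reads per library. It ranked 6 by p among all genes tested. For replicates 1 and 2 the difference was -0.67, and for replicates 3 and 4 it was -0.79.

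The 3 genes of type IX collagen, which coats the fibrils of cartilage and whose chains join in 1 molecule, had differences of both signs. Col9a2 had 31.4, 28.4, 37.4 and 30.4 FPKM in control and 19.8, 19.1, 21.9 and 16.5 FPKM in cKO libraries. Col9a3 had 18.9, 16.6, 22 and 19.6 FPKM in control and 13.4, 12.2, 14.9 and 12.6 FPKM in cKO libraries. Neither gene had overlapping groups. Col9a2 fell by 0.70 on the log2 scale (SE 0.11, limma adjusted p = 0.0313), and Col9a3 had a log2 fold change of -0.50 (SE 0.09, adjusted p = 0.0523). Col9a3 was called with the sets of replicates as a block (limma, adjusted p = 0.0277). Within replicates 1 and 2 the differences of Col9a2 and Col9a3 were -0.60 and -0.44, and within replicates 3 and 4 they were -0.80 and -0.56.

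Col9a1 had 17.7, 14.9, 18.7 and 17.4 FPKM in control and 21.3, 15.3, 27.3 and 25.2 FPKM in cKO libraries. This gene was picked out after its values were seen. It was above all control libraries in cKO replicates 1, 3 and 4 and not in cKO replicate 2, with a log2 fold change of 0.33 (SE 0.16, adjusted p = 0.35). The ratio of Col9a1 to Col9a2 within a library was between 0.499 and 0.572 in control and between 0.802 and 1.53 in cKO. The ratio of Col9a2 to Col9a3 was between 1.55 and 1.71 in control and between 1.31 and 1.56 in cKO. Both ratios were picked out with their values known, so no test was made. On the opposite strand Tcfl5 shares exon bases with Col9a3, and Tcfl5 never exceeded 12 reads per library where Col9a3 had at least 777.

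Col14a1, a FACIT of dense stroma, had 16.7 ± 3.12 FPKM (SD, n = 4) in control and 13 ± 2.29 FPKM (SD, n = 4) in cKO libraries, with overlapping groups. Col12a1 and Col20a1 had log2 fold changes of 0.03 and -0.03, with intervals from -0.18 to 0.24 and from -0.20 to 0.14. Col20a1 shares exon bases on its own strand with a gene that had up to 166 reads in a library, against 92 to 127 for Col20a1, so its level is uncertain. Col19a1 had 3 reads over all libraries and Col22a1 at most 14 reads in one.

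All 5 type VI collagens tested had lower means in cKO, as 49.8% of all genes tested did, and none was called by limma without a block. Col6a1, Col6a2 and Col6a3 encode the main chains of the beaded filaments. Col6a1 had 36.6, 57.5, 35.8 and 65.0 FPKM in control and 54.2, 45.2, 33.0 and 52.9 FPKM in cKO libraries, with overlapping groups and a log2 fold change of -0.05 (interval -0.56 to 0.46). Col6a2 and Col6a3 had log2 fold changes of -0.12 and -0.19 and also overlapped.

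Col6a4 and Col6a6 encode later-found chains related to that of Col6a3, and both were rare here. Col6a4 had 3.28, 2.29, 2.26 and 2.17 FPKM in control and 1.35, 1.59, 1.29 and 1.23 FPKM in cKO libraries. The groups did not overlap, and control replicate 1 stood above the rest. The log2 fold change was -0.56 (SE 0.11) with an adjusted p of 0.0592, on 174 to 485 reads per library. Col6a4 was called with the sets of replicates as a block (limma, adjusted p = 0.0321). The difference within replicates 1 and 2 was -0.60, and within replicates 3 and 4 it was -0.51.

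Col6a6 had 1.25, 1.35, 1.58 and 1.42 FPKM in control and 1.11, 1.26, 0.976 and 0.805 FPKM in cKO libraries. The groups overlapped by cKO replicate 2 alone, which lay just above control replicate 1. The log2 fold change was -0.24 (SE 0.09, unadjusted p = 0.0307, adjusted p = 0.249), with -0.07 for replicates 1 and 2 and -0.40 for replicates 3 and 4. Col6a5 was under the filter.

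Among transmembrane collagens, Col17a1 encodes the collagen of hemidesmosomes, which fix basal epithelial cells to the basement membrane. It had 13.8, 16.9, 19.0 and 17.4 FPKM in control and 12.7, 15.4, 18.3 and 19.7 FPKM in cKO libraries. The groups overlapped throughout, and the interval of the log2 fold change ran from -0.35 to 0.29. Col23a1 had 1.54, 1.57, 1.37 and 1.73 FPKM in control and 1.08, 0.708, 1.23 and 0.704 FPKM in cKO libraries. The groups did not overlap, with a log2 fold change of -0.41 (SE 0.11, unadjusted p = 0.00466, adjusted p = 0.123) on 67 to 186 reads per library. Replicates 1 and 2 gave -0.44 and replicates 3 and 4 gave -0.38.

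Col13a1 and Col28a1 passed the filter with overlapping groups and log2 fold changes of -0.23 and 0.08. Col25a1, Col26a1 and the short-chain collagens Col8a1, Col8a2 and Col10a1 did not pass it. Over the 16 minor collagens tested, the median log2 fold change was -0.21, with 13 lower, 6 at an unadjusted p under 0.05 and 2 called. The shares of all genes tested were 49.8% with a lower mean, 7.53% lower at that unadjusted threshold and 0.304% called lower.

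The spread among libraries differed by class. The SD within groups on the log2 scale had a median of 0.41 over the fibrillar collagens, 0.13 over type IV and the basement membrane zone, 0.16 over the minor collagens and 0.145 over all genes tested. Among the minor collagens it was 0.37 over type VI, near the fibrillar value, and 0.14 over FACIT collagens. The SD is that of log2(FPKM + 1), which narrows the spread of genes with low values. Col3a1, Col1a2 and Col1a1 were among the most variable of all genes, above 97.1%, 96.3% and 96.0% of those tested (percentile of the SD). Col4a1 was at the 26.9th and Col16a1 at the 31.8th percentile.

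The libraries with high fibrillar collagen were those with high fibroblast markers. The mean log2(FPKM + 1) of the 9 fibroblast markers, among them Dcn, Lum and Pdgfra, was 4.01, 4.55, 3.79 and 4.75 in control and 4.56, 3.85, 3.47 and 4.15 in cKO libraries. Of these markers 0 of 9 were called and all 9 had lower means in cKO, with a median log2 fold change of -0.25 and group sums of 245 to 451 FPKM in control and 182 to 375 FPKM in cKO. Over the 8 libraries the level of Col1a2 followed the marker level with a Pearson r of 0.983 and a Spearman rho of 0.952, and r was 0.964 without the 2 libraries farthest from the median. After group means were removed, the median correlation was 0.96 over fibrillar, 0.904 over type VI, 0.684 over type IV and -0.116 over FACIT collagens. These correlations are descriptions over libraries that share scaling and sets. The part of the fibroblast content in the group differences was not tested.

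Within the classes the exceptions had names. Among fibrillar chains, Col11a1 and Col11a2 had correlations of -0.03 and -0.67 with the fibroblast markers after group means were removed, where Col1a2 had 0.987. Among the others, Col15a1, Col13a1 and Col14a1 had 0.956, 0.966 and 0.933, and Col7a1, Col9a2 and Col9a3 had -0.71, -0.64 and -0.51. Among type VI chains, Col6a4 and Col6a6 had -0.30 and -0.07. The correlation of Col16a1 was 0.04.

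**Figure D3:**
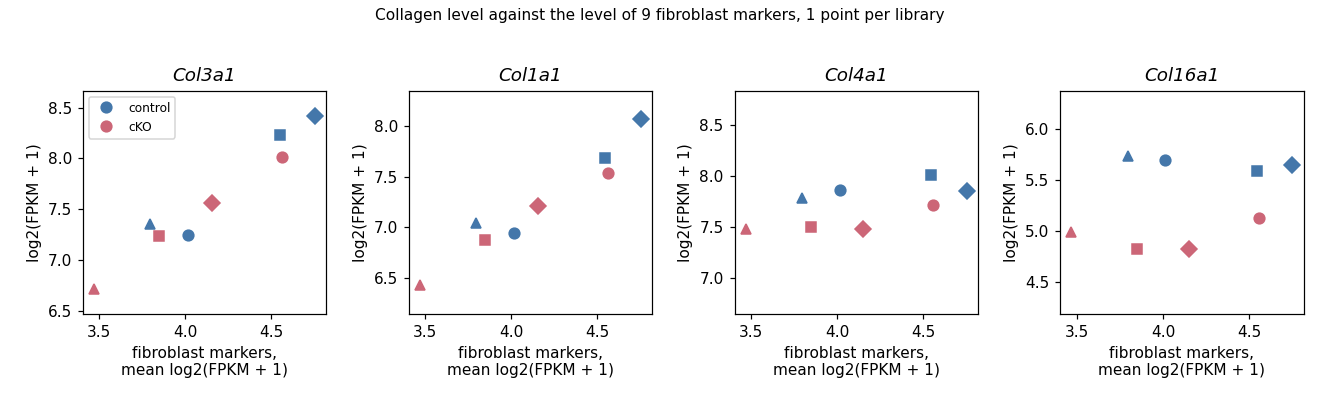
Level of 4 collagen genes (y axis, log2(FPKM + 1)) against the mean log2(FPKM + 1) of 9 fibroblast markers (x axis), 1 point per library, with replicates 1 to 4 as circle, square, triangle and diamond. Col3a1 and Col1a1 rise with the markers in both groups, whereas the Col16a1 points of the cKO libraries lie under all control points at every marker level, 27.3 to 34.1 FPKM against 47.2 to 52.5.

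Of the markers of other cell types reported here, only Cidec, an adipocyte marker, was called. Of the 7 endothelial markers, 0 were called and Pecam1 and Emcn were lower at an unadjusted p under 0.05, with sums of 114 to 131 FPKM in control and 87.1 to 120 FPKM in cKO. All 7 had lower means in cKO, with a median log2 fold change of -0.19, where 49.8% of all genes tested had a lower mean and 7.53% were lower at that threshold. Of the 8 myoepithelial markers, 0 were called, Krt14 and Trp63 were lower and Oxtr was higher at an unadjusted p under 0.05. Their sums were 1606 to 2186 FPKM in control and 1508 to 2078 FPKM in cKO. Of the 6 luminal markers, Elf5 was higher at that threshold, with sums of 4757 to 5943 FPKM and 4618 to 5938 FPKM. Of the 6 macrophage markers 1, Adgre1, was lower at it, with sums of 27.7 to 39.1 FPKM in control and 20.7 to 32.1 FPKM in cKO. Of the 3 adipocyte markers tested, Adipoq and Cidec were higher at it and Cidec was called, with list sums of 77.6 to 120 FPKM in control and 98.7 to 130 FPKM in cKO. The 5 lymphocyte markers given here, Ptprc, Cd3e, Ms4a1, Cd79a and Cd4, summed to 3.18 to 19.8 FPKM in control and 1.90 to 3.65 FPKM in cKO, and of the 3 tested 0 were called and 2 were lower at it. None of the 5 pericyte and vascular smooth muscle markers tested reached it and all 5 had lower means, with a median log2 fold change of -0.12 and list sums of 56.4 to 70.4 FPKM and 42.1 to 64.0 FPKM. Lower means in cKO were found for 3 of the 8 myoepithelial, 4 of the 6 luminal, 5 of the 6 macrophage and 0 of the 3 adipocyte markers tested, and for the 3 lymphocyte markers tested. Of the markers reported, Lep was listed at 0 in some library. After group means were removed, the 3 type IV genes tested had a median correlation of 0.564 with the endothelial and -0.631 with the myoepithelial marker level. Endothelial and myoepithelial cells both make type IV collagen, and the part of these marker differences in the collagen differences was not tested.

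The 5 chain ratios compared between the groups, each of chains that join in 1 protein or 1 fibril, varied little. The ratio of Col1a1 to Col1a2 was between 1.77 and 1.95 in all 8 libraries, although each gene varied more than 2-fold within a group. The ratio of Col3a1 to Col1a1 was between 1.22 and 1.46, that of Col4a1 to Col4a2 between 1.49 and 1.67, and that of Col6a1 to Col6a2 between 1.86 and 2.18. The ratio of Col5a1 to Col5a2 was between 0.717 and 0.828 in control and between 0.624 and 0.788 in cKO.

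None of these 5 ratios passed an exact two-sided permutation test between the groups. The smallest p that 4 libraries against 4 can give is 0.0286. The p was 0.971 for Col1a1 to Col1a2, 0.8 for Col3a1 to Col1a1, 0.771 for Col4a1 to Col4a2, 0.114 for Col5a1 to Col5a2 and 0.2 for Col6a1 to Col6a2 (exact test), and 0.5 or above for each after Benjamini-Hochberg adjustment over the 5. The differences in the mean log2 ratio were 0.00, -0.01, -0.02, -0.16 and 0.08 in that order, against an SD within groups of 0.06 to 0.12. The first 3 of these changed sign as single libraries were left out.

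**Figure D4:**
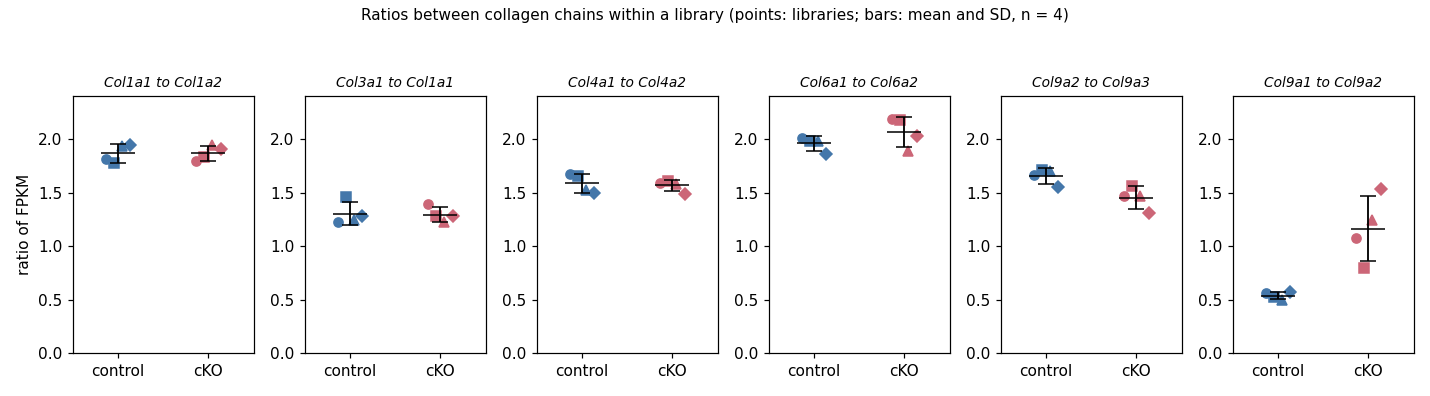
Ratio of FPKM between pairs of collagen chains (y axis) in each library (points, with replicates 1 to 4 as circle, square, triangle and diamond) with the mean and SD of each group (bars, n = 4). Ratios of type I, III, IV and VI chains lie at the same height in both groups, while Col9a1 to Col9a2 lies at 0.540 in control and at 1.16 in cKO on average.

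The genes that modify, fold, cut and cross-link collagen chains, and those of the collagen receptors, were taken as 45 genes, 42 of which passed the filter. None was called by limma at an adjusted p under 0.05. At an unadjusted p under 0.05 there were 8, of which 2 were higher and 6 lower, where 16.4% of all genes tested reached it in either direction and 7.53% were lower. The median log2 fold change of the 42 was -0.13.

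Of the hydroxylation enzymes, P3h2, a prolyl 3-hydroxylase, had 32.3 ± 2.28 FPKM (SD, n = 4) in control and 38.1 ± 1.91 FPKM (SD, n = 4) in cKO, without overlap (limma, adjusted p = 0.145). P3h1 and its partner Crtap had log2 fold changes of -0.28 and -0.22 (limma, adjusted p = 0.297 and 0.243). Of the export factors, Mia2, which helps load large cargo at the endoplasmic reticulum, had 7.75 ± 0.112 FPKM (SD, n = 4) in control and 9.04 ± 0.333 FPKM (SD, n = 4) in cKO, without overlap (limma, adjusted p = 0.129). The chaperone list had no other gene at that threshold.

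Among processing genes, Adamts3, a procollagen N-proteinase, and Pcolce, which enhances cleavage of the C-propeptide, had log2 fold changes of -0.44 and -0.65 (limma, adjusted p = 0.195 and 0.278). Loxl3, a lysyl oxidase-like enzyme of cross-linking, had -0.26 (limma, adjusted p = 0.239). Itga2, the collagen-binding integrin subunit, had -0.44 (limma, adjusted p = 0.288). The groups overlapped for all 6 genes with lower values.

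Promoters are shown for Col16a1 and Col7a1, 2 of the called genes, and for Col3a1 as the highest fibrillar gene. Each run is the 250 bases before the transcript start in RefSeq GRCm38.p6 on the plus strand, at chr4:130047590-130047839, chr9:108953336-108953585 and chr1:45311288-45311537. Capitals mark GGGCGG (a GC box), CCAAT or its reverse, GGCGCC (a palindrome known from BMP-responsive SMAD elements) and TATAAA, each searched on both strands.
Col16a1: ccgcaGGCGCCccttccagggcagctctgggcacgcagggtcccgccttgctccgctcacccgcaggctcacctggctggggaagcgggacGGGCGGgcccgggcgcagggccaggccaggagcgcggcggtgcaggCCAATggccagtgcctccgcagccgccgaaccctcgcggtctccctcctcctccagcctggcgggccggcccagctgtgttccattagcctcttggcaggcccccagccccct
Col7a1: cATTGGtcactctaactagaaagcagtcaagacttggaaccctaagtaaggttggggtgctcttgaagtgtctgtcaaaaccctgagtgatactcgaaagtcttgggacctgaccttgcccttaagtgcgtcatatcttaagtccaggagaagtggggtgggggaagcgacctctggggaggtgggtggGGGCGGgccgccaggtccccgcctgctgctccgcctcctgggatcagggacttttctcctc
Col3a1: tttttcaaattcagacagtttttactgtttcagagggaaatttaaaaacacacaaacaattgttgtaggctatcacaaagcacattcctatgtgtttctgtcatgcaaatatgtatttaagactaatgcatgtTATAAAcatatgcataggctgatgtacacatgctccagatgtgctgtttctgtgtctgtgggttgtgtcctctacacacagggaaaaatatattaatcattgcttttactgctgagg
The Col16a1 run was 75.6% G and C, the Col7a1 run 56.4% and the Col3a1 run 35.2%, and of the 3 only Col3a1 held the TATAAA letters and lacked the GC box.

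RefSeq windows were at hand for 35 of the 44 collagen genes, and the 250 bases before the start were searched. The bases shared by Col4a1 and Col4a2 lie after both starts and so outside the searched stretch. Of the 10 collagen genes with a window and an unadjusted p under 0.05, 9 held GGGCGG, 7 held CCAAT, 2 held GGCGCC and 0 held TATAAA. Of the 16 other tested collagen genes with a window, the counts were 7, 5, 1 and 4. Over 32851 mouse windows searched over the same 250 bases, 32.7% held GGGCGG, 33.8% held CCAAT, 9.59% held GGCGCC and 12.4% held TATAAA. The median G and C content was 62.4% in the first set and 56.6% in the second, against 52.4% over all windows, and GGGCGG and GGCGCC are made of G and C alone. A match describes letters and does not show that a factor binds there.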

How the data were processed

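RNA-seq of mammary epithelial cells from 4 control and 4 cKO mice was analysed. Hisat2 was used by the authors for mapping to GRCm38, and the deposited FPKM values are reads on each gene scaled by gene length and library size. The submitters' processing notes name featureCounts 1.5.0-p3, StringTie 1.3.3b and the build mm9, while 99.7% of the 55394 genes found in GENCODE vM21 (GRCm38) had its coordinates there, all 44 collagen genes included. Strand-specific counting is not given in the sources used here. FPKM times gene length gave whole reads for 100.0% of values above 0 (tolerance 0.01 of a read), and the deposited FPKM already held median-of-ratios size factors.

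FPKM are not counts, so log2(FPKM + 1) was tested with limma 3.58.1 in R 4.3.3 (empirical Bayes with trend) over the 15143 genes with a mean of at least 0.5 FPKM, with Benjamini-Hochberg adjustment over all of them and a threshold of 0.05. No test was made on a class or list of genes. Ratios of chains were compared by exact permutation in scipy 1.17.1. The members, gene lists and classes were chosen with earlier results of these data known. Values per library were given for collagen genes with an unadjusted p under 0.05, the 3 fibrillar, 2 type IV and 3 minor genes with the highest mean, and Col17a1, Col7a1, Col15a1 and Col18a1. Machinery genes with an unadjusted p under 0.05 were named. One gene of the lymphocyte list is not reported here. Each library was 1 mouse. Intervals are those of limma. Alternatives were a pseudocount of 0.1, no filter, a mean of at least 1 FPKM, scaling to an equal sum (TPM), the replicate number or the sets of replicates as a block, limma-voom on recovered reads, the same with the replicate block, and each library left out in turn.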

Additional observations from a re-analysis of the deposited data

Results flagged for a closer look

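Single libraries stood apart from the other 3 of their group in 5 of 112 groups of 4 examined (by the gap to the nearest library over the range of the group), and chance alone gives about 5% of groups. In cKO replicate 1, Col4a1 stood at 209 FPKM against 177 to 179 in the other cKO libraries. The sum of the type IV collagens, which Col4a1 dominates, stood at 361 FPKM in the same library against 308 to 313. The ratio of Col6a3 to Col6a1 was 0.258 in cKO replicate 1 and 0.207 to 0.212 in the others. Control replicate 3 had 24.4 FPKM of Col7a1, where the other controls had 20.8 to 21.4. Col6a4 stood at 3.28 FPKM in control replicate 1 against 2.17 to 2.29.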

How the results depend on the processing

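The 3 collagen calls became 1 without a filter and 6 with the sets of replicates as a block (Col16a1, Col4a1, Col6a4, Col7a1, Col9a2 and Col9a3). They became 5 with limma-voom on recovered reads and 7 with limma-voom and the replicate block, which added Col4a2 to those 6. Leaving out 1 library gave 0 to 3 calls. Deviations of same-numbered libraries had correlations of 0.137, 0.11, 0.116 and 0.0797, and as 1 of the 4 was not above 0.1 the number was not taken as a pairing. With the replicate block in limma there were 4 collagen calls (Col9a3 added), 12 at an unadjusted p and 50 calls over all genes instead of 135. Over all genes there were 10 without a filter, 442 with the block by sets, 252 with limma-voom and 680 with limma-voom and the replicate block. Machinery calls became 2 under the block by sets (P3h2 and Adamts3) and 2 when limma-voom was blocked by replicate (Adamts3 and Itga2). At an unadjusted p they ranged from 3 to 10 as libraries were left out. The median difference of the minor collagens was -0.0587 without a filter and ranged from -0.29 to -0.12 as libraries were left out. Scaling to equal sums moved the median of all genes by -0.05, and there Col12a1 had -0.0154. As single libraries were left out, log2 fold changes changed sign for Col6a1 (-0.179 to 0.102), Col6a2 (-0.256 to 0.0499), Col5a2 (-0.288 to 0.0108), Col17a1 (-0.116 to 0.0837) and Col12a1 (-0.0162 to 0.104). The log2 ratios ranged from -0.0227 to 0.0214 for Col1a1 to Col1a2, from -0.0454 to 0.0476 for Col3a1 to Col1a1 and from -0.045 to 0.00939 for Col4a1 to Col4a2. The causes were not tested. Of the 162 values for counts, classes and ratios under an alternative, 132 kept their direction and call. Of 623 for single genes, 575 did, 22 lost a call, 16 gained one and 10 changed sign. With 3 libraries against 4 an exact test allows no p under 0.0571, and a paired one over 4 pairs none under 0.125.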
